A study of Homo sapiens with 10 samples.

Results

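Of 120452 open chromatin regions merged from the peak lists of a GATA6 degron line of DLD-1 cells, 12086 (10.0%) were constitutive, narrow, intragenic and distal. A region was taken when all 10 libraries of the study called it with an overlap of at least 1 bp, when it was under 2000 bp wide, and when its midpoint lay inside the body of a protein-coding gene of the RefSeq annotation and over 10 kb from every protein-coding gene end. Of the 120452 regions, 62170 were called by all 6 degron libraries and 45302 by all 10. The members were thus selected on being called in every list, a measured value, and on width and position. Narrowness left 42525, a midpoint inside a gene left 23200, and the distance from gene ends left the 12086 described here.

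DLD-1 is an established human colorectal adenocarcinoma line. Accessible DNA was cut and tagged by a transposase and sequenced (ATAC-seq), on 50000 viable cells per library by the Omni-ATAC method. The 10 libraries form 5 groups of 2. AID_ctrl, AID_aux and AID_wash share the genotype GATA6-AID-IAA7, in which GATA6 carries an auxin-inducible degron, a tag that leads to destruction of the protein when auxin (IAA) is present. AID_ctrl has the time label 0 h and a control title, although its treatment label names auxin, and it is read here as untreated. AID_aux had 12 h of auxin, given as 500 µM IAA in the labels' protocol. AID_wash is labelled as washed, with the time 1 and no unit. The WT group is unedited DLD-1, and the KO group has the genotype GATA6-KO, made with CRISPR/Cas9. The labels speak of positive clones of the degron line without saying how many were used, and replicates are not stated to come from separate cultures, which means that their spread may be technical.

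Stretches of open chromatin inside genes and far from their ends often hold enhancers or internal promoters, which transcription factors bind to set the activity of the host gene or of other genes nearby. GATA6 is a zinc-finger factor of the gut epithelium that binds GATA motifs and takes part in the identity of intestinal cells. AP-1 and TEAD factors are among the other factors that often bind distal open chromatin in epithelial cells.

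The colonic epithelial label was checked at the gene ends. All 10 epithelial marker genes (EPCAM, CDH1, KRT8, KRT18, KRT19, KRT20, VIL1, CDX2, CDX1 and LGR5) had a region called by all 10 libraries within 1000 bp of an end. The same was so for 8 of 18 blood and immune markers, 5 of 16 neuronal markers and 3 of 20 mesenchymal and endothelial markers. CD3E, CD8A, SPI1, RUNX3, CD14, CSF1R, KIT, GATA1, COL1A1, PDGFRB and ZEB1 were among those with one, and PTPRC, PECAM1, COL1A2 and VIM among those without. The share of all protein-coding genes with such a region is not given here, so these counts only describe the lists. The lists differed in length before any selection, from 154150 to 198493 peaks in the 6 degron lists and from 65939 to 130311 windows in the 4 WT and KO lists, and the files hold no read counts. The shortest list, WT replicate 2, set the number of constitutive regions most: without it 16023 regions met the rule in place of 12086, against 12108 to 12410 without any other single library.

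All 12086 regions lie far from the ends of their host genes as the gene table gives them. Still, 708 (5.86%) overlapped by at least 1 bp a window around an annotated RefSeq transcription start. Of these, 545 did so at a protein-coding gene and 238 at a long non-coding RNA, with 75 at both. Each window runs from 250 bases before to 50 bases after the start (RefSeq, GRCh38.p14), and sequence could be read only there. Such members are said here to hold a start, although the start itself can lie outside the region. The members that held such a start and were called lower or higher after auxin by the rule given with the comparisons (3 in all) are printed first, and the start of ZNF112, a zinc-finger protein gene, follows as one of the most open that was not called. Capitals mark GATA motifs, searched on both strands by the letters AGATAA or the letters AGATAG or the letters TGATAA or the letters TGATAG.
LOC124904359: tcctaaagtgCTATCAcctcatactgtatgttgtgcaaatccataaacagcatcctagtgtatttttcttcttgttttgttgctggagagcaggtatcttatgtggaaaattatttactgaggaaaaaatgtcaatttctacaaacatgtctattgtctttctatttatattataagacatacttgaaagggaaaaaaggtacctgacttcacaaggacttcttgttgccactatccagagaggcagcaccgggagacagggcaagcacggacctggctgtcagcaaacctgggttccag
LINC00332: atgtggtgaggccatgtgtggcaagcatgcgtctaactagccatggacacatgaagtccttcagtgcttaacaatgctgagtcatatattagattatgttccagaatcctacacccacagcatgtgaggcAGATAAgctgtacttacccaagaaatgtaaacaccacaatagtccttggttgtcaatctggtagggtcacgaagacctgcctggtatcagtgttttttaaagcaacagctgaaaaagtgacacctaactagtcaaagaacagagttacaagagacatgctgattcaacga
RNF212B: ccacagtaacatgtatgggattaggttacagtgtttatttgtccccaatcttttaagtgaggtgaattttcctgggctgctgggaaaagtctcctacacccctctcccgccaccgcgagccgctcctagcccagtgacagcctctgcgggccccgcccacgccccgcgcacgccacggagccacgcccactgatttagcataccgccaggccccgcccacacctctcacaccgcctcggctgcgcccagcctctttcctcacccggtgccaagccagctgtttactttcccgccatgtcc
ZNF112: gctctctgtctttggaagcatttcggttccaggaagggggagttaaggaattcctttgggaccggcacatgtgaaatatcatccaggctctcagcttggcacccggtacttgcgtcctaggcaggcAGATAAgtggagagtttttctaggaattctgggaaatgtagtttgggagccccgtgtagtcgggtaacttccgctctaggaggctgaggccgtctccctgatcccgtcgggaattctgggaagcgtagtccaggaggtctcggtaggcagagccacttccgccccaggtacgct
LOC124904359 is a long non-coding RNA inside TSPAN2, a tetraspanin gene, and its window is chr1:115068646-115068945 on the plus strand. Its single GATA motif lies before the edge of the open region, chr1:115068840-115070210. The LINC00332 window, chr13:40181559-40181858 on the plus strand, has 1 GATA motif, which lies within the region chr13:40181025-40181842, and 2 AP-1 motifs. RNF212B (chr14:23237686-23237985, plus strand) has no GATA motif. The ZNF112 window (chr19:44356655-44356954, minus strand) has 1 GATA motif.

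Those 4 internal starts differed in how their regions behaved. The LOC124904359 region had fold enrichments, the authors' own value for the height of a peak over its local background, of 9.01 and 9.72 in AID_ctrl, 4.99 and 6.07 in AID_aux, and 7.26 and 8.31 in AID_wash. The LINC00332 region stood at 14.25 and 10.95, then 5.04 and 5.68, then 11 and 11.54 in the same order. In both, the AID_aux libraries were the lowest and did not overlap those of either other group. The RNF212B region, at the start of a gene whose relative RNF212 acts in meiotic crossing over, had 8.77 and 6.92 in AID_ctrl, 11.43 and 13.79 in AID_aux, and 7.15 and 9.72 in AID_wash. There the AID_aux libraries were the highest. The ZNF112 region had 18.93 and 18.09, then 22.1 and 17.94, then 16.35 and 16.4, and its AID_aux and AID_ctrl libraries overlapped. The ZNF112 and LINC00332 windows both carried the letters AGATAA, while the LINC00332 region was called lower and the ZNF112 region was not. Among the other most open members with a start, the SRGAP3 window had 0 GATA motifs and the LOC107985500 window had 1. Neither of those regions was called. Nothing on motifs and calls is read from these few windows.

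Among the 938 start windows that overlapped members, 22.3% held a GATA motif, against 24.9% of all 34961 windows in the table. The AP-1 motif TGANTCA was found in 14.0% of the windows in members and in 7.68% of all windows. The TEAD motif GGAATG was found in 15.6% and 14.0%, the TCF/LEF motifs CTTTGAA or its variant CTTTGAT in 7.04% and 6.87%, and the forkhead motifs TGTTTAC or its variant TGTTTGC in 8.0% and 7.16%. All were searched on both strands, and a window with several motifs counts for each, overlapping matches included. Median GC content was 61.7% in the windows in members and 58.7% in all windows, and its part in these shares was not tested. The windows in members lie in regions open in all 10 libraries and far from gene ends. The full set was not chosen for openness or position, and some members hold several windows. The part of these differences was not tested either, so the shares are no trait of the members alone. A match is only a match of letters, and the members that overlapped no start window, 11378 in number, have no sequence here.

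Hairpins of 16 microRNAs, of 1558 in the table, overlapped 16 members. The member with MIR128-1, inside R3HDM1, is the only one of the 16 that was called after auxin. The share called either way among all 62170 regions called by the 6 degron libraries was 3.71%, and nothing is read from 1 member. The mature microRNA with its seed (bases 2 to 8) in capitals shows which product comes from that hairpin.
hsa-miR-128-3p: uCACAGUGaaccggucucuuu
The region, chr2:135664516-135665494, had fold enrichments of 5.01 and 4.12 in AID_ctrl, 7.91 and 6.50 in AID_aux, and 5.58 and 5.29 in AID_wash. Both AID_aux libraries were above all 4 others. MIR152 (in COPZ2), MIR6090 (in ETS1), MIR3646 (in HNF4A) and the other hairpins lay in members that were not called.

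Each region was given, in each degron library, the fold enrichment of its highest summit. Over the members, the median fold enrichment was 9.91 and 9.97 in AID_ctrl, 10.5 and 9.84 in AID_aux, and 9.24 and 9.72 in AID_wash. The order of the libraries followed that of all 62170 regions called by the 6 degron libraries, whose medians were 8.66 and 8.72, 9.10 and 8.56, and 7.99 and 8.45. Values were therefore divided by the library's own median over those 62170 regions, and on that scaled level, where 1 is the typical shared region, the members had medians from 1.14 to 1.16 in the 6 libraries. The rule used the calls that rest on this height, so it is given as a description.

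**Figure D1:**
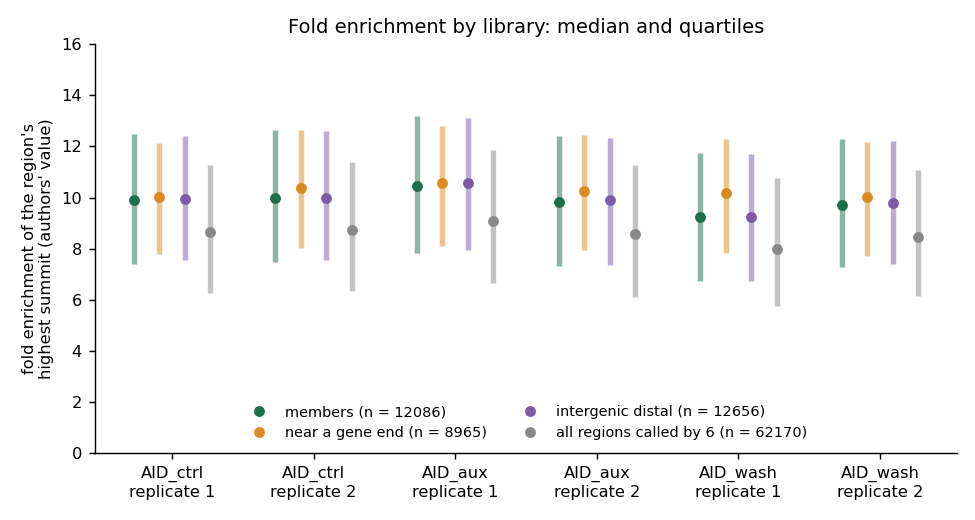
Fold enrichment of each region's highest summit (vertical axis, the authors' value) in the 6 degron libraries (horizontal axis), as the median (point) and the quartiles (bar) over regions of 4 classes. The members lie close to the intergenic distal class in every library, and AID_wash replicate 1 has their lowest median, 9.24.

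The members were close in height to like regions elsewhere. Constitutive regions under 2000 bp within 1000 bp of a protein-coding gene end (8965) had medians of 10.0 to 10.6 in the 6 libraries, and constitutive intergenic regions of the same width over 10 kb from gene ends (12656) had 9.26 to 10.6. Members were 1153 bp wide in the median (quartiles 886 and 1409), close to the intergenic class (1144 bp) and narrower than the class near gene ends (1410 bp). Only 11% of members had a single summit in every library, and the mean number of summits per member was 2.23 to 2.53.

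The 10 most open members, ranked by the lowest of their 6 scaled values, lay in ARHGAP32, MPP7, STPG4, RAD51B, SEC31A, TCEANC2, IL1RAP, NHEJ1, ARHGEF28 and FBXW7. The region in ARHGAP32, which encodes a GTPase-activating protein, lies at chr11:129143009-129144046 and had fold enrichments of 23.49 and 23.77 in AID_ctrl, 24.4 and 25.74 in AID_aux, and 19.75 and 25.56 in AID_wash. The region in MPP7, a scaffold protein of cell junctions, had 23.75 and 22.06, then 22.07 and 21.77, then 19.69 and 20.11. In FBXW7, the substrate receptor of a ubiquitin ligase and a tumour suppressor in colorectal cancer, the region chr4:152485567-152486890 had 21.7 and 19.42, then 19.39 and 19.0, then 20.0 and 22.49. None of these 10 was called in any of the 3 comparisons. A ranking by the lowest value works against regions that drop in 1 group, so nothing is read from this. Of all 62170 regions called by the 6 degron libraries, 3.71%, 3.59% and 1.73% were called either way in the 3 comparisons. In the most open of 4 equal groups of members, 0.265% were called lower after auxin and 0.0662% higher.

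Most members varied little. The median ratio between the highest and the lowest of the 6 scaled values was 1.39, against 1.42 for all 62170 regions, 1.30 near gene ends and 1.41 for the intergenic class. Its quartiles were 1.27 and 1.58, and it was over 2 in 707 members (5.85%). That ratio was over 2 in 7.0% of all regions, 6.67% of the intergenic class and 0.759% of regions near gene ends. Between the 2 replicates of a group the median difference was 1.12-fold in AID_ctrl, 1.13-fold in AID_aux and 1.14-fold in AID_wash. Replicates differed by at least 1.5-fold in 4.29%, 4.91% and 6.38% of members, against 5.88%, 6.33% and 7.47% of all regions. The gap between replicates of 1 group was thus as large as the change asked of a call in about that share of members.

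The first question was how the height of these always-open regions stood after GATA6 had been degraded. A member was called lower when both AID_aux libraries lay below both AID_ctrl libraries and the ratio of the geometric means of the scaled values was at least 1.5-fold, and called higher in the reverse case. With 2 libraries against 2 the smallest exact permutation p, two-sided, is 0.333, so no p is given and each count is read beside the share called over all 62170 regions. After auxin 236 members (1.95%) were called lower, against 2.31% of all regions, and 148 (1.22%) were called higher, against 1.4% of all regions. Both shares were near the background. The other 11702 members were not called, and the median log2 ratio of all members was 0.01, with 90% of them between -0.41 and 0.40. Because every member had to be called in AID_aux, regions that dropped out of those lists are not among them.

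At a stricter fold the directions differed in number. With a ratio of at least 2, 44 members were called lower (0.364%, against 0.362% of all regions) and 2 higher (0.0165%, against 0.0434%). The members therefore had an excess of lower over higher calls at this fold, as did the shared regions as a whole. Leaving out either replicate of either group gave 304 to 440 members lower and 269 to 332 higher at the 1.5-fold rule, since 1 library overlaps less often than 2. That is 2.52% to 3.64% lower and 2.23% to 2.75% higher, against 3.1% to 3.94% and 2.6% to 3.08% of all regions. Without AID_ctrl replicate 1 there were 328 lower (2.71%, against 3.28% of all regions) and 332 higher (2.75%, against 3.08%). The excess of lower calls among members at 1.5-fold thus depends on that library. It also depends on the summit used. The mean of the summits in place of the highest gave 210 lower (1.74%, against 1.78%) and 202 higher (1.67%, against 1.68%).

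**Figure D2:**
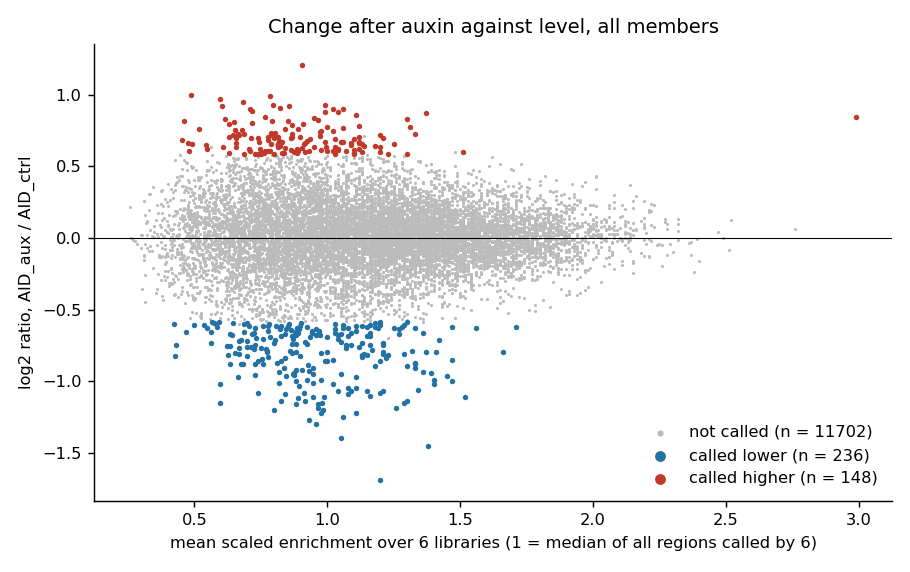
Log2 ratio of AID_aux to AID_ctrl (vertical axis) against the mean scaled enrichment over the 6 degron libraries (horizontal axis) for the 12086 members, with the 236 called lower in blue and the 148 called higher in red. The blue points reach -1.69 and the red points 1.21, and few called members lie among the most open.

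The 236 members called lower had median fold enrichments of 10.5 and 10.3 in AID_ctrl, 6.30 and 5.67 in AID_aux, and 8.46 and 9.21 in AID_wash. The median over all members was 9.91 and 9.97 in AID_ctrl. The 148 called higher had 6.11 and 5.85, then 10.4 and 9.61, then 6.71 and 7.37. These members were chosen for their values in AID_ctrl and AID_aux, so the gap between those groups is set by the choice, and any other group would tend to fall between them whatever its treatment. Nothing is read from the AID_wash values here.

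Calls were rarer where the region was more open. In 4 equal groups of members by mean scaled level, from the least to the most open, 89, 87, 52 and 8 were called lower and 77, 57, 12 and 2 higher. In the most open group this is 0.265% lower and 0.0662% higher, in the least open 2.95% and 2.55%. The shared regions as a whole also had fewer calls at higher levels, so this fall is not particular to the members. Of the 30473 shared regions with a scaled mean of at least 1, 1.28% were called lower and 0.653% higher. Over all 62170 these shares were 2.31% and 1.4%. Among the 7689 members at that level, 96 were lower and 45 (0.585%) higher. The background was not split into the 4 groups. Replicates also differed less in the more open groups. The share of members with a gap of at least 1.5-fold between the AID_ctrl replicates was 7.02% in the least open group and 1.26% in the most open, and between the AID_aux replicates 7.81% and 1.16%. The part of this spread in the calls was not tested.

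The 10 members furthest below AID_ctrl lay in HECW2, EXOC6B, FILIP1, ENPP2, ARHGAP42, LOC124903162, PHLPP1, PLCB1, SLC4A4 and DLEU7, with log2 ratios from -1.69 to -1.20. They are the extremes of 12086 members and were picked by the size of the ratio. In HECW2, which encodes a HECT-type ubiquitin ligase, the region chr2:196239511-196240575 had 17.71 and 15.73 in AID_ctrl, 7.06 and 3.93 in AID_aux, and 11.78 and 13.26 in AID_wash. The AID_aux libraries were 3.22-fold lower than AID_ctrl, and the wash libraries lay between without overlap. In EXOC6B, a subunit of the exocyst that tethers vesicles to the plasma membrane, the region chr2:72757250-72758197 had 18.34 and 16.48, then 7.40 and 5.68, then 14.73 and 14.75. The region in FILIP1, a filamin-binding protein gene, at chr6:75412788-75414205 had 12.78 and 11.15, then 4.37 and 4.81, then 14.32 and 12.68. Here the wash and control libraries overlapped before scaling, and after it both wash libraries lay above both control libraries.

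The AID_aux libraries were also the lowest in the other members of that group. In ENPP2, which encodes autotaxin, the enzyme that makes lysophosphatidic acid, the values were 11.04 and 12.96, then 5.04 and 4.81, then 9.54 and 9.15. In PHLPP1, a phosphatase that acts on Akt, they were 14.81 and 13.76, then 6.39 and 6.11, then 7.97 and 11.93. In SLC4A4, a sodium bicarbonate cotransporter of epithelia, they were 12.29 and 11.32, then 3.69 and 7.38, then 9.94 and 9.57. In SLC4A4 the 2 AID_aux libraries differed from each other by more than in the other members described. PLCB1 (a phospholipase C), ARHGAP42 (a GTPase-activating protein) and DLEU7 had AID_aux values from 3.93 to 6.05 and AID_ctrl values from 9.36 to 12.62.

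The 10 members furthest above AID_ctrl lay in LRMDA, NEDD4L, GALNT13, WWOX, SETBP1, SEL1L3, ARSG, EIF2B3, MYOM1 and IL33, with log2 ratios from 0.91 to 1.21. In LRMDA, a gene of melanocyte differentiation, the region chr10:76149660-76150708 had 5.85 and 4.07 in AID_ctrl, 10.42 and 12.67 in AID_aux, and 7.57 and 9.29 in AID_wash. The 3 groups did not overlap. In NEDD4L, a ubiquitin ligase that controls epithelial sodium channels, the region chr18:58100059-58100731 had 2.84 and 3.40, then 7.29 and 5.47, then 4.14 and 3.37. In IL33, a cytokine of epithelial cells, the region chr9:6243403-6244352 had 4.73 and 5.81, then 9.91 and 10.15, then 6.92 and 6.48. All 10 had AID_ctrl values below 7, which a choice by the size of the ratio favours.

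**Figure D3:**
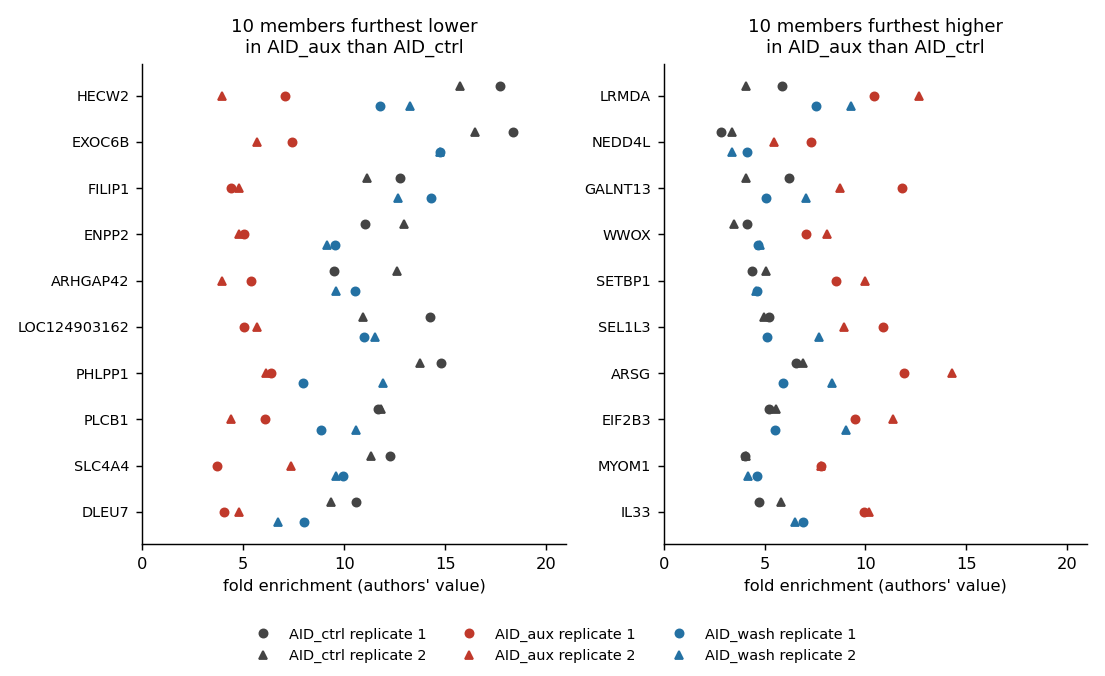
Fold enrichment (horizontal axis, the authors' value) in the 6 degron libraries of the 10 members furthest lower (left) and furthest higher (right) in AID_aux, each row a member named by its host gene and each point a library. The AID_aux points are the lowest in all 10 rows on the left and the highest in all 10 on the right.

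Few genes held more than 1 called member. Of 4529 host genes, 231 had at least 1 member called lower and 143 at least 1 called higher, and 7 had both. HECW2, ME3, PARD3, RASAL2, SEMA3C and UPP2 each had 2 lower, and ALK, AOPEP, CACNA1C, CAMTA1 and TBC1D4 each had 2 higher. These 11 were picked after their values were seen. In HECW2 the other region, chr2:196459039-196460228, had 10.54 and 11.48 in AID_ctrl, 5.71 and 4.81 in AID_aux, and 13.12 and 14.58 in AID_wash. In UPP2, a uridine phosphorylase, one region had 14.02 and 15.57, then 8.28 and 8.99, then 12.82 and 12.62. In TBC1D4, a Rab GTPase-activating protein in glucose uptake, both of its 2 members were called higher, one of them from 4.75 and 4.48 to 10.08 and 6.56.

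The next question was how the members stood after auxin had been washed out. Against AID_aux, 177 members (1.46%) were called lower in AID_wash, against 1.62% of all regions, and 224 (1.85%) were called higher, against 1.96%. With a ratio of at least 2, 4 were lower (0.0331%, against 0.0483%) and 39 higher (0.323%, against 0.327%). Against AID_ctrl, 105 (0.869%) were called lower, against 1.13%, and 47 (0.389%) higher, against 0.605%; with a ratio of at least 2 there were 2 lower (0.0165%, against 0.0257%) and 2 higher (0.0165%, against 0.0145%). At these settings the counts of members stayed near or below the background in each comparison. With the mean of the summits, 183 were higher in AID_wash than in AID_ctrl (1.51%, against 1.23%) and 136 lower (1.13%, against 1.21%). Against AID_aux, 263 were then higher (2.18%, against 1.88%) and 184 lower (1.52%, against 1.73%). The higher calls thus stood above the background at that setting. These comparisons share libraries with the first and with each other. Without scaling, 366 members were lower (3.03%, against 3.27% of all regions) and 140 higher (1.16%, against 1.23%) than in AID_aux. Against AID_ctrl, without scaling, 198 were lower (1.64%, against 2.06%) and 29 higher (0.24%, against 0.278%). AID_wash replicate 1 has the lowest median of the 6 libraries. Without AID_wash replicate 2, 402 members were called lower than AID_ctrl (3.33%, against 3.45%) and 168 higher (1.39%, against 1.78%).

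Among members higher in AID_wash than in AID_aux, those furthest included the regions in FILIP1, HECW2 (both of its called regions) and SLC35D4, with log2 ratios from 1.35 to 1.66. In SLC35D4 the region chr18:23405612-23406928 had 9.63 and 9.62 in AID_ctrl, 3.93 and 5.03 in AID_aux, and 10.93 and 11.64 in AID_wash. There the 2 wash libraries lay above the 2 control libraries as well. The 5 furthest lower lay in RADIL, ARHGAP32, THEM4, PRKCA and CRYBG3. RADIL, an effector of the small GTPase Rap, had 8.10 and 5.76, then 9.64 and 12.72, then 4.15 and 5.13. The region in ARHGAP32, chr11:129130669-129132069, is another than the most open member of that gene and had 10.46 and 9.71, then 14.09 and 11.2, then 6.30 and 4.81.

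Against AID_ctrl, the 5 members furthest lower in AID_wash lay in KCNJ6, TYW1B, PRKCA, PLCXD3 and PPP3CA. In KCNJ6, a potassium channel gene, the region chr21:37711870-37712687 had 11.25 and 11.34 in AID_ctrl, 8.74 and 8.73 in AID_aux, and 4.63 and 5.45 in AID_wash, so its wash libraries were the lowest. In PRKCA, the gene of protein kinase C alpha, the region chr17:66602191-66603230 had 9.87 and 7.73, then 10.08 and 8.30, then 4.63 and 3.85. There the control and auxin libraries overlapped and only the wash libraries stood apart. The 5 furthest higher lay in PDZRN4, SEMA6A, LIMA1, RPIA and SHROOM3. PDZRN4 had the highest value of any member in AID_aux replicate 1 and in both wash libraries: at chr12:41363575-41363793, only 219 bp wide, it had 21.2 and 12.62, then 34.95 and 25.46, then 37.54 and 31.93. In SHROOM3, which shapes the apical side of epithelial cells, the values were 6.21 and 6.51, then 12.77 and 8.30, then 8.83 and 13.76, and the replicates stood far apart in both later groups.

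Beside like regions, members were called about as often as intergenic distal regions and more often than regions near gene ends. In AID_aux against AID_ctrl, 322 of 12656 intergenic regions (2.54%) were lower and 188 (1.49%) higher, while 24 of 8965 regions near a gene end (0.268%) were lower and 16 (0.178%) higher. The regions near gene ends were wider and varied less between replicates, by at least 1.5-fold in 1.36% of regions in AID_ctrl against 4.29% of members. The same contrast ran through the members themselves. Of the 708 that overlapped a start window, 2 were called lower and 1 higher (0.282% and 0.141%). Of the 11378 that overlapped none, 234 were called lower and 147 higher (2.06% and 1.29%). Those with a start window had a median span over the 6 libraries of 1.31, those without 1.40.

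**Figure D4:**
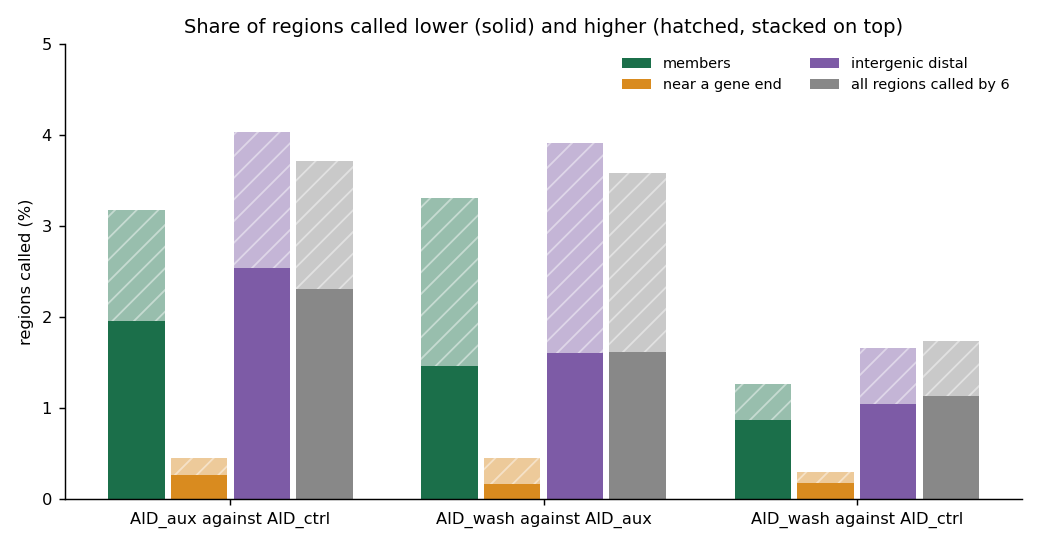
Share of regions called lower (solid) and higher (hatched, stacked on top), in percent on the vertical axis, for the 3 comparisons and 4 classes of regions. Members stand at 3.18%, 3.32% and 1.26% in all, close to all shared regions, while regions near a gene end stay under 0.5%.

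The KO and WT lists bear on the members only through the rule, since all 4 had to call each of them. Within these lists, exactly 1 window of 500 bp overlapped 92.8% to 95.6% of members in each library, and the centre of the nearest window lay within 250 bp of the AID_ctrl replicate 1 summit in 86.8% to 91.3%. The median distance was 89 and 77 bp in WT and 97 and 96 bp in KO. Regions of the same width and position that failed the rule on KO only show what it left out. Of 79 regions called by the 6 degron and both WT libraries but by neither KO library, 25 (31.6%) were lower in AID_aux than in AID_ctrl and 0 were higher, with a median log2 ratio of -0.29, against 1.95% and 1.22% of members. Of 986 called by both KO libraries and neither WT library, 21 (2.13%) were lower and 34 (3.45%) higher. The KO libraries share no sample with the degron comparison, and the difference between these sets and the members was not tested.

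The members were spread over many genes. They lay in 4529 of the 10991 protein-coding genes long enough to hold one (41.2%), of which 2062 had 1 member, 1758 had 2 to 4, 563 had 5 to 9 and 146 had 10 or more. Most members had a single host gene (11927), and 159 lay in overlapping genes and count in each. The gene table gives no exons, so exonic and intronic members cannot be told apart here. Among the 9813 members with 1 host of known strand, 26.7%, 25.4%, 24.0% and 23.9% lay in 4 successive stretches of equal length from the start of the gene. Neighbouring members were 45.4 kb apart in the median, and 21.7% of gaps were under 10 kb.

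GSE1, a coiled-coil protein found with histone deacetylase complexes, held the most members, 34 in 506.7 kb. RAD51B, a gene of recombination repair, held 32, and NAV2, a neuron navigator protein, held 25. IQCJ-SCHIP1 held 22, of which 18 also lie in SCHIP1, the gene it reads through to, and AOPEP, DLGAP1, KCNMA1, NEDD4L, RANBP2 and TNS3 held 21 each. Per length TNS3 (68.3 members per Mb) and GSE1 (67.1) were the densest of these 10, and RANBP2 (18.7) the sparsest. None of the 34 members in GSE1 or the 32 in RAD51B was called in any of the 3 comparisons. With 3.71%, 3.59% and 1.73% of all 62170 regions called either way, nothing is read from the lack of calls in so few members. The mean scaled levels of the members ran from 0.299 to 1.53 in GSE1 and from 0.448 to 2.39 in RAD51B, so members of 1 gene differed widely in height.

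**Figure D5:**
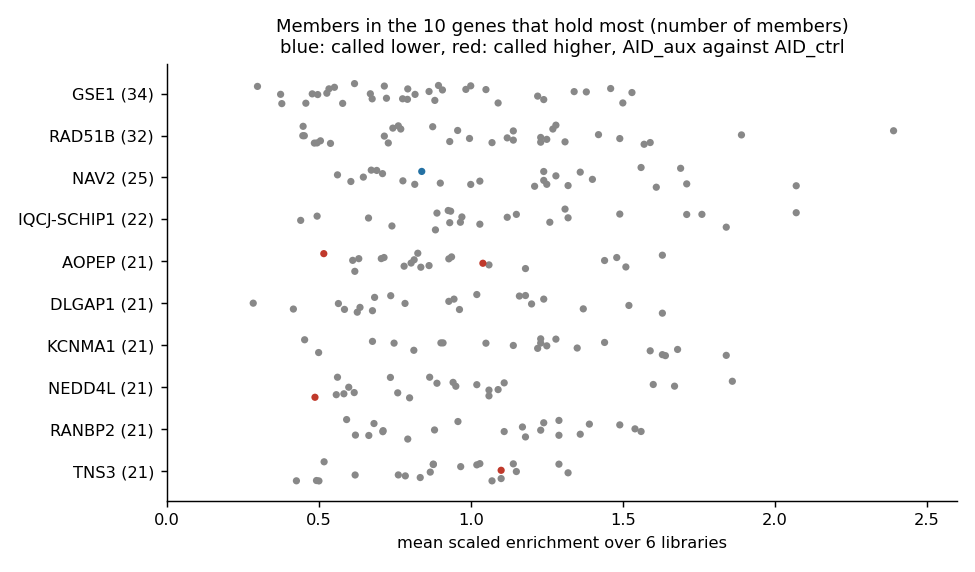
Mean scaled enrichment over the 6 degron libraries (horizontal axis) of each member in the 10 genes that hold most, with the number of members beside the gene name. Each point is a member, and 5 of them are called in AID_aux against AID_ctrl: 1 lower in NAV2, and 2 in AOPEP, 1 in NEDD4L and 1 in TNS3 higher.

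The gene lists, 16 lists of 322 genes, held 723 members in 178 genes, of which 20 (2.77%) were called lower after auxin and 10 (1.38%) higher, near the 2.31% and 1.4% of all regions. Among 22 intestinal transcription factors, 8 genes held 29 members, with 1 lower (3.45%) and 0 higher. GATA6 itself has 1 member, chr18:22185153-22187019, with 3.58 and 3.73 in AID_ctrl, 3.44 and 4.18 in AID_aux, and 3.79 and 4.04 in AID_wash, so the AID_aux libraries overlapped both other groups. In HNF4A, the nuclear receptor of enterocytes, the region chr20:44402569-44403157 was called higher in AID_wash than in AID_ctrl with a log2 ratio of 0.59, while its ratio of AID_aux to AID_ctrl, 0.56, was not called. In CFTR, the chloride channel of secretory epithelium, the region chr7:117645459-117646702 was called lower after auxin (log2 ratio -0.92). It is 1 of 4 members in 3 of 22 genes of colonocytes and secretory cells.

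Junction and polarity genes held 97 members in 20 of 24 genes, with 4 lower (4.12%, against 2.31% of all regions) and 0 higher (against 1.4%) after auxin. The 4 lay in PKP2, a desmosome protein (log2 ratio -0.65), in PARD3, the scaffold of the apical polarity complex (-0.74 and -0.62), and in MAGI2 (-0.69), and the median of the 97 was -0.02. EGFR and RAS pathway genes held 46 members in 10 of 22 genes, with 3 lower (6.52%, also against 2.31%), in the adaptor GAB2 (-0.82) and the Ras GTPase-activating protein RASAL2 (-0.60 and -1.08), and 0 higher. Genes of Wnt signalling held 62 members in 16 of 22 genes, with none called after auxin; a region in LEF1, a Wnt effector, was lower in AID_wash than in AID_aux (-0.72). BMP and TGF-beta genes held 52 members in 14 of 22 genes, with 1 lower (1.92%), in the co-receptor TGFBR3 (-0.97), and 0 higher.

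In the Hippo pathway, 13 of 22 genes held 61 members (1.64% called in each direction), with 1 lower in AMOTL1, which binds YAP (-0.87), and 1 higher in STK4, the kinase MST1 (0.67). Integrin and matrix genes held 103 members in 20 of 24 genes (0.971% in each direction), with 1 lower in ITGA2, an integrin that binds collagen (-0.61), and 1 higher in TNS3, a focal adhesion protein (0.59). Nuclear receptors held 63 in 14 of 22 genes, with 2 lower (3.17%), in RARB (-0.71) and RORA (-0.75), and 1 higher (1.59%) in PPARA (0.60). Chromatin regulators held 52 in 15 of 23 genes, with 2 lower (3.85%), in the histone demethylase KDM4C (-0.79) and the PRC2 cofactor JARID2 (-0.68), and 1 higher (1.92%) in ARID1B, a SWI/SNF subunit (0.81). AP-1 factors held 12 members and cohesin and CTCF genes 3, with none called in AID_aux against AID_ctrl.

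Lists of other cell types and of very long genes were counted in the same way. Very long genes at fragile sites held 84 members in 16 of 20 genes, with 2 lower (2.38%), in RBFOX1 and MAGI2, and 3 higher (3.57%), in FHIT, WWOX and GMDS. Neuronal genes held 56 in 12 of 16, with 2 lower (3.57%), in RBFOX3 and GRIN2B, and 3 higher (5.36%), 2 of them in CACNA1C. Blood and immune genes held 10 in 5 of 18, with 1 lower, in IKZF3 (log2 ratio -0.88). Mesenchymal and endothelial genes held 19 in 8 of 20, with none called in any comparison. With at most 4 members called in 1 direction in any list, nothing is read from the share of a single list.

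The members nearest to each limit and the regions just past it are given as a description. The widest members, at 1999, 1999 and 1998 bp, lay in PTPN14, RASA3 and HIVEP3 with mean scaled levels of 0.943, 1.27 and 1.11, and the narrowest regions left out, at 2000, 2000 and 2001 bp, lay in SEPTIN11, LITAF and THRB with 1.09, 0.736 and 1.20. The members nearest to a gene end, in KIAA0232, IFNGR2 and USB1, had 1.08, 1.35 and 1.20 at 10001, 10005 and 10010 bp. Those just outside, in THNSL1 and ENKUR, LRRC49 and INAVA, had 1.81, 1.39 and 0.537 at 9994, 9990 and 9989 bp.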

How the data were processed

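Peak lists of 10 ATAC-seq libraries were used. The submitters' processing notes name hg38, the trimmer Trim Galore 0.6.10, the aligner Bowtie2 2.4.2, Picard and the peak caller MACS2 2.1.1, without parameters. Each line of the 6 deposited degron lists is a summit with a score, a fold enrichment (ratio) and −log10 values of p and q, the authors' own values for lists called separately. The 4 deposited WT and KO lists hold 500 bp windows only. Read depth is unknown. Chromosomes 1 to 22 and X were used. Intervals were merged and matched to RefSeq genes (GRCh38.p14) with Python 3.11.15, numpy 2.4.6 and pandas 2.3.3, and the interval code and the call rule were tested on simulated data. The changes planted there were larger than the 1.5-fold limit, so the call rule was not tested near that limit. Each region took its highest summit per library, divided by the median over the 62170 regions called by 6 libraries. Regions were named by rank of level or ratio, by host gene or by list, and a few are not reported here. Members, lists and rules were chosen with earlier results of these data known. A motif search over the members needs a genome and was not run; start windows were used instead, a choice made after seeing the data. Alternatives covered scaling, summit choice, the fold, the level, the definition of members and each library left out.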

Additional observations from a re-analysis of the deposited data

How the results depend on the processing

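With the width limit at 1000 bp there were 4166 members, and where each library's peaks had to cover at least 50% of the region there were 2689. The WT and KO lists hold windows of 500 bp, and 1 such window cannot cover 50% of a region over 1000 bp. The cover setting therefore limits width as well, and its count does not show how well the lists match. The 3 distance settings and the stricter degron peaks gave 9146 to 14346, and leaving out a library 12108 to 16023. The mean of the 6 library medians of members was 9.86, and 7.29 with the mean of the summits in place of the highest; leaving out a library gave 9.74 to 9.98. For AID_aux against AID_ctrl, the counts lower and higher were 999 and 814 with −log10 p in place of fold enrichment, 868 and 869 at the lower fold tried, 44 and 2 at a fold of 2, and 96 and 45 among members with a scaled mean of at least 1. For AID_wash against AID_aux the counts were 777 and 917, 845 and 910, 4 and 39, and 66 and 100 under the same settings, and 366 and 140 without scaling. With −log10 p these are 6.43% and 7.59%, against 6.67% and 7.25% of all regions. At the lower fold they are 6.99% and 7.53%, against 7.29% and 7.75%. At the scaled mean of at least 1 they are 0.858% and 1.3%, against 0.817% and 1.27%. For AID_wash against AID_ctrl the counts were 518 and 497, 611 and 667, 2 and 2, and 50 and 15, and 198 and 29 without scaling. The mean of the summits gave 136 lower and 183 higher (1.13% and 1.51%, against 1.21% and 1.23% of all regions). With −log10 p the shares are 4.29% and 4.11%, against 4.95% and 4.5%. At the lower fold they are 5.06% and 5.52%, against 5.78% and 5.85%. At the scaled mean of at least 1 they are 0.65% and 0.195%, against 0.594% and 0.259%. Leaving out a library gave 304 to 440 lower and 269 to 332 higher in the first comparison, 217 to 513 and 316 to 384 in the second, and 159 to 402 and 160 to 191 in the third, since 1 library overlaps less often than 2. In the second these are 1.8% to 4.24% and 2.61% to 3.18%, against 2.51% to 4.19% and 2.85% to 3.47% of all regions. In the third they are 1.32% to 3.33% and 1.32% to 1.58%, against 1.94% to 3.45% and 1.64% to 2.0%. Gene ends taken as 3000 bp put the share of regions near them that was called at 0.837%, against 0.446% at 1000 bp. Of the 40 calls of named members, 25 fell out of the set with a scaled mean of at least 1. Over the other settings, leaving aside the lower fold, which cannot remove a call, 340 values kept the call, 15 lost it at a fold of 2, 5 lost it at another setting and 0 reversed. Leaving out a library or raising the fold cannot reverse a call, because the groups of a called member do not overlap. The named members were also picked by the size of their ratio, so these counts say little on the other calls. The causes of the changes were otherwise not tested. No paired analysis was possible because the result comes from no test and nothing in the labels ties replicate numbers across groups. Unknown depth limits every value.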

Other observations

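The steadiest member over the 6 degron libraries lay in PPP1R16B (chr20:38893489-38894787), a regulatory subunit of protein phosphatase 1, with fold enrichments of 11.92 and 11.93 in AID_ctrl, 12.68 and 11.89 in AID_aux, and 10.82 and 11.41 in AID_wash, a span of 1.03-fold after scaling. TOP1MT, the mitochondrial topoisomerase gene, and LRRFIP1 held the next, with spans of 1.04-fold and 1.05-fold. The narrowest members, at 196, 211 and 219 bp, lay in ARHGEF18, OSBPL3 and PDZRN4, with mean scaled levels of 0.333, 0.512 and 2.99, so the 219 bp region in PDZRN4 stood far above the other two. These 6 were chosen after their values were seen.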
